A study of Homo sapiens with 8 samples.

Results

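The expression of 43 genes of the hypoxia response was measured in 4 human cancer lines on 8 Agilent arrays with 2 dyes. The set holds the subunits and regulators of the hypoxia-inducible factors (HIF) and genes these factors are known to control. Its members were taken by gene name from the non-control probes, and all 43 of the 43 were found among 43317 gene names on the array. Each array set a transfected culture, in Cy5, against mock cells of the same line, in Cy3; the labels give the mock cells as not transfected, and a lipid reagent was used for the transfected ones. Transfected were the 5p and 3p strands of miR-139 in each of the renal cancer lines A498 and 786-O, the siRNAs si-GINS1_1 and si-GINS1_2 in the breast cancer line MDA-MB-231, and the 5p and 3p strands of miR-490 in the colorectal cancer line HCT116. Each transfection in a line was therefore 1 array, each line had 2 mock channels, and the dyes were never swapped. GINS1, a subunit of the helicase complex that opens DNA for replication, is the target of both siRNAs.

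In cells with oxygen, prolyl hydroxylases mark the HIF alpha subunits, the VHL protein binds the marked subunits, and its ubiquitin ligase sends them for degradation. Without oxygen, or without working VHL, the alpha subunits HIF-1 alpha (gene HIF1A) and HIF-2 alpha (gene EPAS1) escape, pair with ARNT and switch on genes for glucose uptake, glycolysis, vessel growth, pH control and collagen processing. Most clear cell renal cancers lose VHL, and A498 and 786-O are both known as VHL-mutant lines. 786-O is also known for making HIF-2 alpha without HIF-1 alpha. The questions here were how the set differed between mock cells of the renal and the other lines, and whether any transfection moved it. An array measures RNA, so the oxygen-dependent step, which acts on protein, was not measured. RNA of whole cultures was used, so fewer expressing cells and less RNA per cell cannot be told apart.

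The transfected miRNAs were the 4 mature strands below, shown because they are the agents compared and because no seed (bases 2 to 8, in capitals) is shared among them. All 4 matched RefSeq by name.
miR-139-5p: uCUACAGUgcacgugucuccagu
miR-139-3p: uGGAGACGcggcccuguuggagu
miR-490-5p: cCAUGGAUcuccaggugggu
miR-490-3p: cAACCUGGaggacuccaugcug

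HIF binds the letters ACGTG or GCGTG in gene control regions. In RefSeq promoters (GRCh38.p14, 250 bases before to 50 after the start), these letters on either strand were in 28 of the 36 members with an entry, or 77.8%. They were in 48.4% of all 35116 promoters. CACGTG, an E-box that other factors also bind, holds the letters on both strands and was counted as 2 matches. LDHA and BNIP3 had the most matches, 6 each. Of the 9 members with an entry that had both renal lines above both others by a mean of at least 1, 7 had a match. EGLN3 and P4HA2, among these 9, had 0. The set was chosen for HIF control, so its share beside that of all promoters does not test such control. Not listed were VEGFA, VHL, NDRG1, SLC2A3, BNIP3L, LOXL2 and KISS1R. The promoters of 2 members with large differences between the renal and the other lines, and of CA9, a classical HIF target that was near background here, are shown with the matches in capitals (ACGTG and GCGTG, or CACGT and CACGC on the other strand). They lay on GRCh38.p14 at chr19:8363905-8364204 (ANGPTL4, + strand), chr9:19127443-19127742 (PLIN2, - strand) and chr9:35673678-35673977 (CA9, + strand).
ANGPTL4: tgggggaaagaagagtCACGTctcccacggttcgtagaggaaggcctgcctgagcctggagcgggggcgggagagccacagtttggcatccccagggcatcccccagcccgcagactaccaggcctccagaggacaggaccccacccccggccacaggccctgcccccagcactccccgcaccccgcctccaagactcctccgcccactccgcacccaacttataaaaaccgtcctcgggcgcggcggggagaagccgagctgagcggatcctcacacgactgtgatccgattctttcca
PLIN2: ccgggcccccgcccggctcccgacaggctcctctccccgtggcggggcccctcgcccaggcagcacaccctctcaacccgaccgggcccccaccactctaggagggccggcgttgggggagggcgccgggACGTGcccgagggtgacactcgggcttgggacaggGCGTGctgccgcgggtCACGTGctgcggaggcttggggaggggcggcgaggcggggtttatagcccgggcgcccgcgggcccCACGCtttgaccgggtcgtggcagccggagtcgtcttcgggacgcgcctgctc
CA9: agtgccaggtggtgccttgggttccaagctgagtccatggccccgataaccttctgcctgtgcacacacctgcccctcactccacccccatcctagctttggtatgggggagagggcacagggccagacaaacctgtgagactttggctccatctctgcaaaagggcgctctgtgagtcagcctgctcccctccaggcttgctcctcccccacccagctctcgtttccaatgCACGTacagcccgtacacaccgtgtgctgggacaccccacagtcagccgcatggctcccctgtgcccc
PLIN2 had 5 matches and ANGPTL4 and CA9 had 1 each. A match is a run of letters and not a measured binding site.

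The level of a gene is its normalized log2 Cy3 intensity from its brightest probe, and values of different genes cannot be compared with each other. The arrays held 58201 non-control probes, and 24980 to 29685 of them stood well above background in Cy3, Cy5 or both, while no spot was saturated. The lowest Cy3 signal called well above background was about 5.77 to 5.87 on the 8 arrays. The 2 mock channels of a line differed by at most 0.23 for any member, which was EPAS1 in A498. Nothing in the labels says whether the 2 mock channels were separate cultures, so this spread may be technical. Of the kidney epithelium genes, 4 of 6 had both renal lines above both others with a mean difference of at least 1. Of all genes tested, 3.88% did. PAX8 was among the 4, with line means of 8.23 (A498), 8.16 (786-O), 6.76 (MDA-MB-231) and 6.36 (HCT116). EPCAM, an epithelial surface protein listed with the gut genes, had a renal minus other difference of -3.96, at 6.11 and 5.98 against 8.02 in MDA-MB-231 and more in HCT116. Of the other gut genes, CDX2 was above background only in HCT116 (7.70), CDX1 was above it on all 8 arrays and highest in A498 (7.19), and VIL1 and CDH17 were above it on none. Of the 6 breast epithelium genes, ESR1 was above background on all 8 arrays, close to it, GATA3 on 5 with its highest mean in MDA-MB-231 (6.99), and PGR, KRT5 and KRT14 on none. Of the 4 blood and vessel cell genes, PTPRC and CDH5 were at 6.03 to 6.21 in all lines, PECAM1 was above background on 2 arrays, and CD14 was at 8.42 in MDA-MB-231 and 5.87 to 6.76 elsewhere. The part of these markers in the results was not tested.

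In mock cells, a block of HIF targets was far higher in both renal lines than in both other lines, while the 9 glycolytic enzymes had no member higher by 1 on their brightest probes. Of 42 members that passed the filter on dim probes, 13 were higher by at least 1 on the log2 scale in the renal lines and 3 were lower by at least 1. Both renal lines were above both other lines, with a difference of their means of at least 1, for 12 members, where 3.88% of all 22794 genes tested were. Both were below, by the same measure, for 1 member, ANKRD37, against 2.98% of all genes. No gene passed limma's test on the 4 line means after Benjamini-Hochberg adjustment, so the called share was 0% and no member was called. At an unadjusted p under 0.05, 11 members were higher and 3 lower, beside 5.37% and 4.64% of all genes and 2281 genes in total. The median difference was 0.10 over the members and -0.03 over all genes. With Cy3 median scaling alone, which moved the median of all genes to -0.28, 8 members were higher and 10 lower by this measure, and relative to that median 11 and 6. With all 8 mock channels and the cell line as a random block, limma called 10 members, 9 higher and ANKRD37 lower. No share of all genes is given for that fit, so these calls cannot be read as an excess of members. That fit also enters both mock channels of a line, whose spread may be technical. With 2 renal lines against 2 others, tissue of origin and VHL state cannot be told apart.

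**Figure D1:**
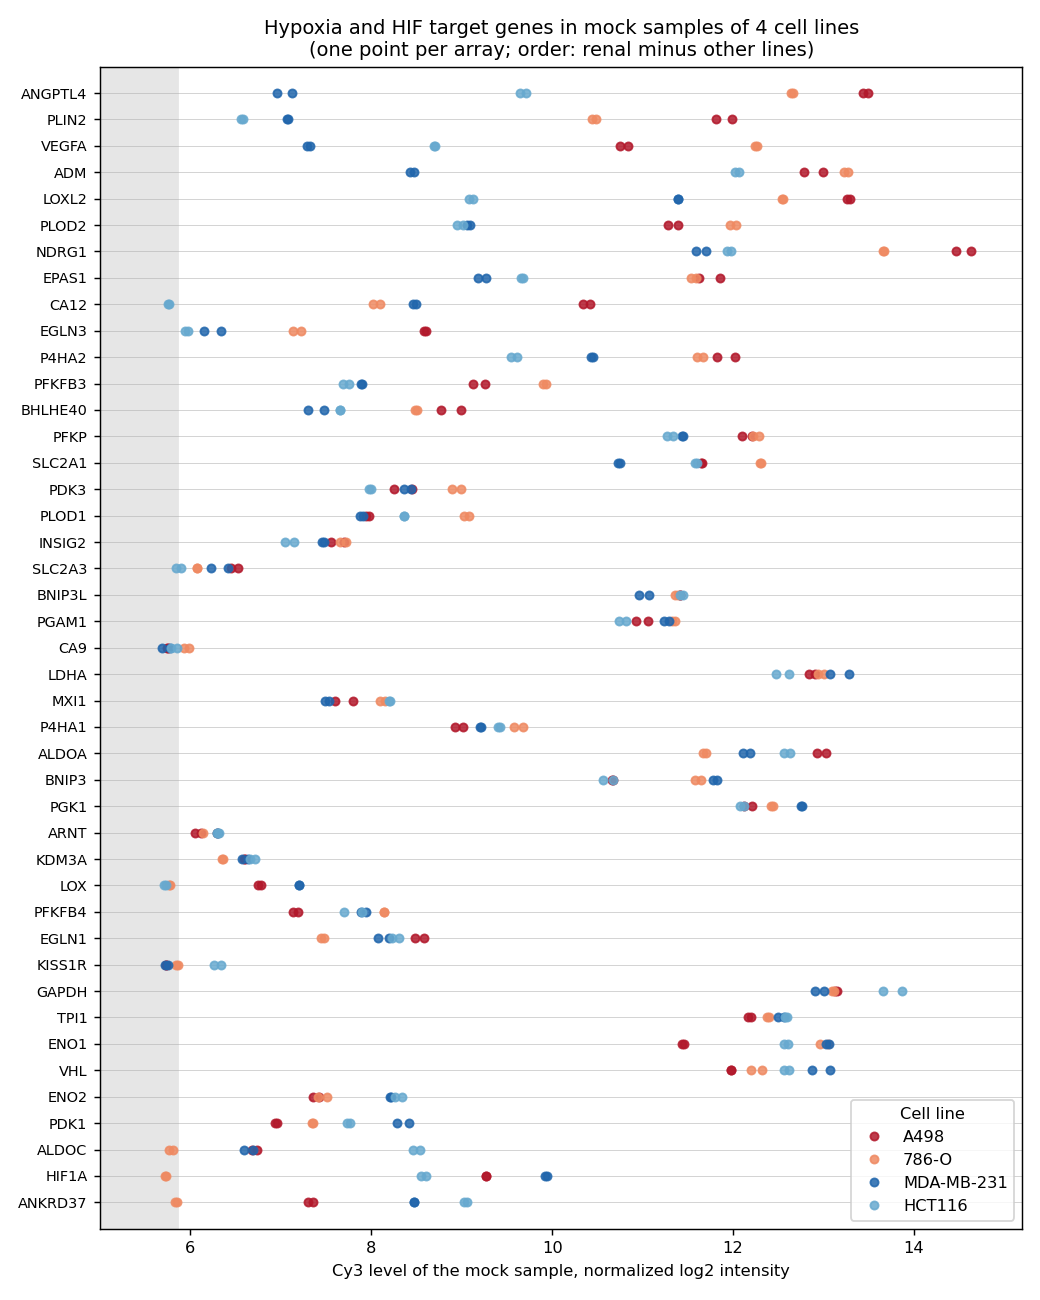
Level of each of the 43 genes in mock cells (x axis, normalized log2 Cy3 intensity; 1 point per array, 2 per line; y axis, genes ordered by the mean of the renal lines minus the mean of the others; grey, below 5.87, the highest of the arrays' lowest signals well above background). The red and orange points of A498 and 786-O lie right of the blue points for 12 of the top 13 genes, all but CA12, whereas HIF1A in 786-O lies in the grey area.

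The alpha subunits differed from each other in their pattern. EPAS1, which encodes HIF-2 alpha (probe on hg19 chromosome 2, 46613666 to 46613725), was at 11.63 and 11.86 (A498), 11.59 and 11.53 (786-O), 9.18 and 9.27 in MDA-MB-231, and 9.66 and 9.68 in HCT116. Both renal lines were thus above both others with no overlap, by 2.21 on the log2 scale (SE 0.21, 4.62-fold; limma adjusted p = 0.212), and by 1.25 with Cy3 median scaling alone. HIF1A, which encodes HIF-1 alpha (chromosome 14, 62214845 to 62214904), was at 9.27 and 9.26 (A498), 5.72 and 5.72 (786-O), 9.92 and 9.95 in MDA-MB-231, and 8.55 and 8.61 in HCT116. Only the 786-O values were not well above background. HIF1A was at least 10.6-fold lower in 786-O than in A498, at least 16.9-fold lower than in MDA-MB-231 and at least 6.59-fold lower than in HCT116, counting the lowest signal above background as the level of 786-O. A second, dimmer HIF1A probe was also at background in 786-O (5.74) and at 6.76, 7.04 and 6.30 in A498, MDA-MB-231 and HCT116. Without 786-O, the renal minus other difference of HIF1A was 0.01 in place of -1.76.

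VHL RNA was present in every line. VHL, the recognition subunit of the ligase, was at 11.98 and 11.97 (A498), 12.19 and 12.32 (786-O), 13.07 and 12.88 in MDA-MB-231, and 12.61 and 12.57 in HCT116. It was lower in the renal lines by 0.67 on average with no overlap (SE 0.21, limma adjusted p = 0.488), and its difference was -1.57 with Cy3 median scaling alone. A probe cannot show whether the RNA carries a mutation. ARNT, the shared partner subunit, was between 6.05 and 6.32 on all 8 arrays. Among 4 other genes of the VHL ligase, none had a mean difference of 1. The largest in size were those of RBX1 (-0.85) and ELOC (0.73), both with no overlap. Of 7 other HIF subunits and cofactors, 1 had both renal lines below both others with a mean difference of at least 1, HIF3A (-1.38). None had both above. Of all genes tested, 2.98% were below and 3.88% above by this measure.

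The oxygen sensors split. EGLN3, a prolyl hydroxylase that HIF itself induces, was at 8.58 and 8.60 (A498) and 7.23 and 7.13 (786-O), above 6.34 and 6.15 in MDA-MB-231 and 5.94 and 5.97 in HCT116. The difference was 1.79 (SE 0.57, limma adjusted p = 0.494). EGLN1, the main hydroxylase for HIF-1 alpha, did not separate the lines, with 8.59 and 8.48 (A498), 7.44 and 7.48 (786-O), and 8.07 to 8.31 in the other lines. BHLHE40, a transcriptional repressor, was higher in the renal lines by 1.17, from 8.49 to 8.99 in the renal lines against 7.30 to 7.66 elsewhere. ANKRD37, a small ankyrin repeat protein, ran the other way, at 7.30 and 7.36 in A498 and not well above background in 786-O (5.85 and 5.83), against 8.47 on both arrays of MDA-MB-231 and 9.06 and 9.03 in HCT116. 786-O was at least 6.10-fold below MDA-MB-231 and at least 9.07-fold below HCT116. Its renal minus other difference, -2.17 on the scale used, rests on a background value in 786-O and ran from -1.41 in the Cy5 channel to -4.26 with the scanner's processed signal.

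The acid and vessel genes carried the largest differences, with 5 of 7 higher by at least 1 and a median of 2.31. ANGPTL4, a secreted inhibitor of lipoprotein lipase (chromosome 19, 8439197 to 8439256), was at 13.44 and 13.50 (A498), 12.64 and 12.66 (786-O), 7.12 and 6.96 in MDA-MB-231, and 9.70 and 9.65 in HCT116. The gap of 4.70 (SE 1.09, 25.9-fold; limma adjusted p = 0.399) was the largest of the set, and the other lines differed from each other by 2.63. VEGFA, the main growth factor for vessels (chromosome 6, probe between 43746223 and 43746634), was at 10.75 and 10.84 (A498), 12.26 and 12.24 (786-O), 7.32 and 7.29 in MDA-MB-231, and 8.69 and 8.70 in HCT116, a difference of 3.52 (SE 0.80, limma adjusted p = 0.396). Its second probe gave 2.62 in the same order of lines.

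ADM, the vasodilator adrenomedullin, was at 12.79 to 13.27 in the renal lines, at 12.02 and 12.07 in HCT116 and at 8.43 and 8.47 in MDA-MB-231. Its difference was 2.82 (SE 1.42), and MDA-MB-231 was below HCT116 by 3.59. NDRG1, a stress-induced gene often used as a hypoxia marker, was at 14.47 and 14.63 in A498, 13.66 in 786-O and 11.59 to 11.97 in the other lines, a difference of 2.31. CA12, a membrane carbonic anhydrase, was high in A498 (10.34 and 10.41), at 8.02 to 8.49 in 786-O and MDA-MB-231, and not well above background in HCT116, so 786-O did not lie above MDA-MB-231. CA9, the related anhydrase, was well above background on 1 of 8 arrays only and ran from 5.69 to 5.98. KISS1R, the kisspeptin receptor, was above background only in HCT116 (6.33 and 6.26).

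The collagen and lipid genes included further members with no overlap. PLIN2, which coats lipid droplets, was at 11.82 and 11.99 (A498), 10.44 and 10.48 (786-O), 7.06 and 7.08 in MDA-MB-231, and 6.58 and 6.56 in HCT116. The difference was 4.36 (SE 0.61, 20.6-fold; limma adjusted p = 0.281), and the dimmer PLIN2 probes gave 1.24 and 0.56. PLOD2, a lysyl hydroxylase of collagen, was at 11.39 and 11.28 (A498), 11.96 and 12.03 (786-O), and between 8.95 and 9.10 in the other lines, a difference of 2.64 (SE 0.28, limma adjusted p = 0.219). LOXL2, a lysyl oxidase, was at 13.26 and 13.29 (A498), 12.54 and 12.56 (786-O), 11.40 on both arrays of MDA-MB-231, and 9.08 and 9.12 in HCT116. Its difference of 2.66 was 1.52 without HCT116 and 3.81 without MDA-MB-231. P4HA2, a subunit of collagen prolyl hydroxylase, was higher by 1.77, and by 2.09 and 1.45 on its dimmer probes. LOX was above background in A498 (6.78 and 6.75) and MDA-MB-231 (7.20 on both arrays) and not in 786-O or HCT116. P4HA1, PLOD1, BNIP3, BNIP3L and INSIG2 differed by less than 0.5 on their brightest probes, while a dimmer BNIP3L probe gave -0.84 and a dimmer INSIG2 probe 0.51.

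Sugar metabolism was mixed. Of the 9 glycolytic enzymes, 1 was lower by at least 1 and the median difference was -0.24. PFKP, a phosphofructokinase, was the highest of them, with both renal lines above both others by 0.83 (limma adjusted p = 0.293) and by 1.03 on its second probe. LDHA, which makes lactate, was between 12.48 and 13.28 on all 8 arrays. PGK1 was between 12.08 and 12.76, and GAPDH between 12.91 and 13.86. ALDOC, an aldolase, was lower by 1.32 on average, with 8.54 and 8.46 in HCT116, 6.69 and 6.59 in MDA-MB-231, 6.74 and 6.68 in A498, and 5.76 and 5.80, not well above background, in 786-O. PFKFB3, which makes the activator of phosphofructokinase, was higher by 1.75 with no overlap, at 9.13 and 9.25 (A498), 9.94 and 9.89 (786-O), and 7.68 to 7.89 elsewhere. Its second probe, near background, gave 0.26. The glucose transporter SLC2A1 was higher by 0.81. PDK1, a pyruvate dehydrogenase kinase, was lower by 0.90, and the neuronal enolase ENO2 was lower by 0.83. Of 8 other glycolysis and lactate export genes, SLC16A1 had both renal lines above both others with a mean difference of 1.06, and GPI had both below with -1.24. A498 lay close to one of the other lines for both genes, at 7.40 against 7.25 in HCT116 for SLC16A1 and at 12.20 against 12.28 in MDA-MB-231 for GPI. Of all genes tested, 3.88% had both renal lines above by a mean of at least 1 and 2.98% had both below.

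Of 21 tested other hypoxia-induced genes, 5 had both renal lines above both others with a mean difference of at least 1. TFRC was the 1 gene with both below. Of all genes tested, 3.88% were above and 2.98% below by this measure. Single lines could be closer than 1 on the log2 scale, as for HILPDA, at 9.42 in A498 and 9.14 in HCT116. VLDLR, a lipoprotein receptor, had line means of 7.93 (A498), 8.09 (786-O), 6.21 (MDA-MB-231) and 5.75 (HCT116, not well above background). CXCR4, a chemokine receptor, was at 11.72 in A498 and not well above background in 786-O (5.73). Among genes described as HIF-2 targets in renal cancer, POU5F1 was higher in both renal lines by 2.36, and CCND1, a cyclin, differed by 0.00.

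The Cy5 channel holds other RNA of the same lines, from transfected cells. In it, the 16 members with a mock difference of at least 1 all had the same sign, and the largest change of a difference was 0.76. For EPAS1 the Cy5 difference was 1.70, for ANGPTL4 5.42, for PLIN2 4.07, for VEGFA 3.59 and for HIF1A -2.03. The 2 channels of an array were normalized together, so they are not fully separate measurements.

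The renal lines also differed from each other. A498 was above 786-O by at least 1 for 7 of 41 members and below by at least 1 for 3, where the shares of all genes were 5.71% and 5.1%. The 7 were HIF1A, CA12, ANKRD37, PLIN2, EGLN3, ALDOA and EGLN1. The second PLIN2 probe ran the other way, at 6.97 in A498 and 7.42 in 786-O. The 3 lower in A498 were ENO1 (-1.56), VEGFA (-1.46) and PLOD1 (-1.09). Alongside them BNIP3 was lower by 0.95 and PFKFB4 by 0.98 in A498. These are differences between 1 pair of mock channels and another, with no test.

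The response to transfection was read as the log2 ratio of Cy5 to Cy3 on each array, and a ratio of at least 0.5 in size was counted. Shares of all genes are those of the main setting. Counts under median centring and other settings have no such share beside them. GINS1 itself had a log2 ratio of -1.31 with si-GINS1_1 and -1.92 with si-GINS1_2, between -0.11 and 0.16 on the miR-139 arrays, and 0.29 and 0.55 on the miR-490 arrays. A ratio to mock leaves out the spread of the mock cells, and a dye effect of a probe stays in it because the dyes were not swapped. A transfection also differs from mock by the transfection itself, which cannot be told apart from the agent.

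**Figure D2:**
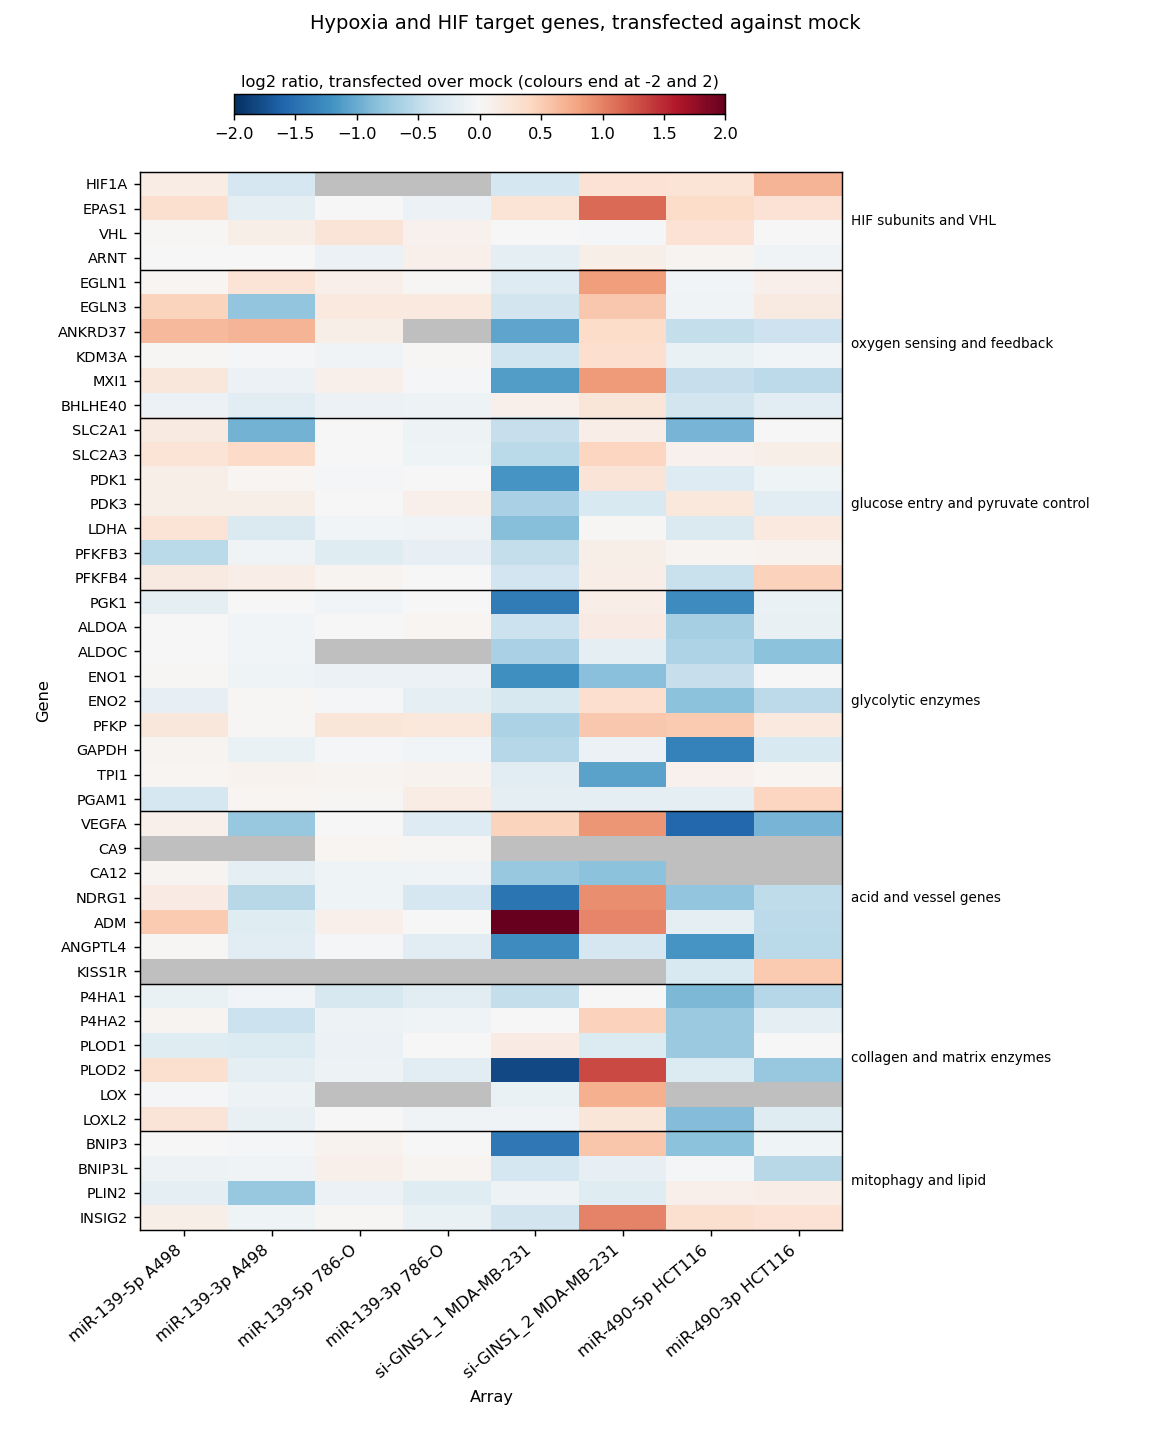
Log2 ratio of transfected to mock cells for the 43 genes (rows, by role) on the 8 arrays (columns); red is higher and blue lower in transfected cells, grey marks a gene not well above background in either channel. The si-GINS1_1 column is mostly blue and the si-GINS1_2 column mostly red, the 786-O columns are pale, and with median centring the si-GINS1_1 and miR-490-3p columns lose their blue excess and the miR-139-5p column of A498 turns redder.

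The 2 siRNAs against GINS1 gave opposite pictures for much of the set. With si-GINS1_1, 16 of 41 measured members had a ratio of -0.5 or lower and 1 of 0.5 or higher, beside 7.3% and 7.81% of all genes, with a member median of -0.39. With si-GINS1_2, 3 were lower and 12 higher, beside 6.28% and 4.58%, with a median of 0.24. Median centring of the arrays, which keeps any trend of the ratio with brightness, gave 8 lower and 8 higher for si-GINS1_1 and 2 lower and 21 higher for si-GINS1_2, so the excess of lower members with si-GINS1_1 was lost there. Under it the all-gene medians were 0.18 and 0.08 and the member medians 0.01 and 0.51.

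The direct difference between the siRNAs was taken between their log ratios, so the mock channels of both arrays enter it. These mock channels differed by at most 0.21 for any member (LDHA). The difference between the siRNAs cancels a probe's dye effect. Over 41 members its median was -0.59, and 35 were lower with si-GINS1_1. A difference of at least 1 was seen for 10 members lower with si-GINS1_1 and for 1 higher, beside 2.54% and 2.81% of all genes. With median centring these counts were 8 and 2. On opposite sides of mock by at least 0.5, lower with si-GINS1_1 and higher with si-GINS1_2, were 5 members (NDRG1, PFKP, BNIP3, PLOD2 and MXI1), beside 0.548% of all genes, and no member was the other way round. There was 1 array per siRNA, so the difference has no test.

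PLOD2 had the widest split, with -1.80 for si-GINS1_1 and 1.32 for si-GINS1_2, where its ratios on the other 6 arrays ran from -0.75 to 0.32. NDRG1 was at -1.47 and 0.93. BNIP3, a mitophagy receptor, was at -1.43 and 0.55. MXI1, a MYC antagonist, was at -1.12 and 0.86, and its second probe gave -1.21 and 1.05. All 4 were below mock with the first siRNA and above it with the second.

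Further members were past 0.5 with 1 of the siRNAs. PGK1 was at -1.40 with si-GINS1_1 and 0.13 with si-GINS1_2, PDK1 at -1.18 and 0.25, and ANKRD37 at -1.05 and 0.37. The lipid regulator INSIG2 was at -0.37 and 0.99, but its second probe, nearly as bright, was at -0.24 and 0.45. EGLN1 was at -0.26 and 0.83. EPAS1 was at 0.28 with si-GINS1_1 and 1.13 with si-GINS1_2, whereas HIF1A, at -0.36 and 0.29, was past 0.5 with neither. ADM, at 2.68 and 0.97, was above mock with both.

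**Figure D3:**
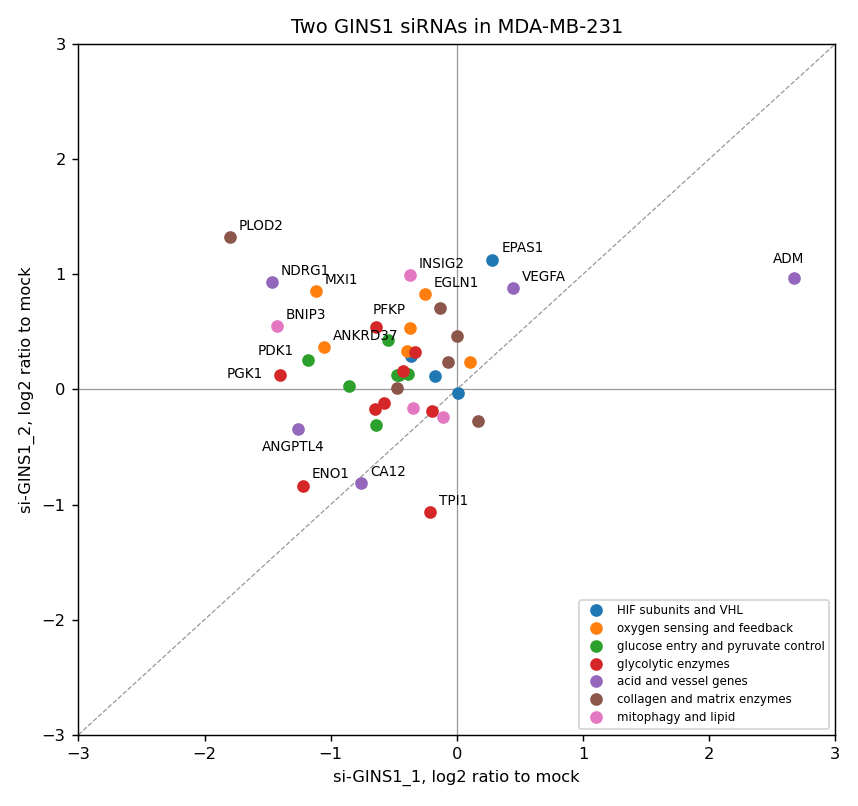
Log2 ratio to mock with si-GINS1_1 (x axis) and si-GINS1_2 (y axis) for the 41 measured genes in MDA-MB-231, coloured by role; the dashed line marks equal ratios. PLOD2 (-1.80 and 1.32), NDRG1, BNIP3 and MXI1 lie in the upper left, ENO1 and CA12 are below 0 on both axes, and the side of 0 for si-GINS1_1 depends on the normalization, since median centring leaves 8 members lower and 8 higher.

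In a limma fit with the siRNAs as 2 replicates of 1 group, 3 of 41 members were called and all 3 fell, where 6.54% of 21366 genes were called lower and 6.25% higher. CA12 fell by 0.79 on the log2 scale (ratios -0.76 and -0.82, SE 0.05, adjusted p = 0.00678). The enolase ENO1 fell by 1.03 (-1.22 and -0.84, SE 0.10, adjusted p = 0.0114). PDK3, a pyruvate dehydrogenase kinase, fell by 0.48 (-0.64 and -0.31, SE 0.09, adjusted p = 0.0372), and its second, dimmer probe was at -0.66 and 0.14. The fit takes its spread from the arrays of all groups; with the arrays of the siRNA group alone no member was called, and with median centring none of these 3 was, while 4 others were, all higher (BHLHE40, EPAS1, VEGFA and VHL). The shares of all genes above are those of the main fit, and none is given for the other fits. A fit without 1 of the siRNAs leaves a lone array that is assumed to vary like the other groups, so its calls are not counted here. TPI1, a triose phosphate isomerase, was at -0.22 and -1.07 and was not called.

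Among 18 measured other hypoxia-induced genes, 6 were lower and 1 higher with si-GINS1_1, and 2 were lower and 7 higher with si-GINS1_2. Of all genes, 7.3% were lower and 7.81% higher with si-GINS1_1, and 6.28% lower and 4.58% higher with si-GINS1_2. ERRFI1, a brake on EGFR signalling, was at -1.47 and 0.88, and WSB1, a ubiquitin ligase subunit, at -1.42 and -0.96. HK2, the hexokinase induced by HIF, was at -0.42 and 1.49. Of the 7 other HIF subunits and cofactors, 1 was lower with si-GINS1_1 and 3 with si-GINS1_2.

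In HCT116, both strands of miR-490 gave more lower than higher members, miR-490-5p more so. With miR-490-5p, 14 of 40 measured members were lower by at least 0.5 and 1 higher, beside 5.55% and 3.88% of all genes. With miR-490-3p, 10 were lower and 2 higher, beside 3.77% and 3.97%. Under median centring miR-490-5p gave 12 lower and 3 higher and miR-490-3p 2 lower and 7 higher, so the direction for miR-490-3p turned. There the all-gene medians were 0.06 and 0.08 for the 5p and 3p strands, and the member medians -0.18 and 0.17. The strands were 1 array each, so neither count has a test.

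VEGFA had the largest member ratio with both strands, -1.57 for 5p and -0.93 for 3p, while its second probe gave -0.72 and -0.24. Under median centring VEGFA was at -1.46 for the 5p strand. The next with miR-490-5p were GAPDH (-1.36), PGK1 (-1.26), ANGPTL4 (-1.18) and SLC2A1 (-0.93). By role, 5 of 9 glycolytic enzymes, 4 of 5 measured collagen and matrix enzymes and 3 of 5 measured acid and vessel genes were lower with miR-490-5p, and PFKP (0.52) was the 1 member higher. With miR-490-3p the next were ALDOC (-0.82), PLOD2 (-0.75) and P4HA1 (-0.56), and HIF1A was higher (0.69; second probe 0.16). With miR-490-5p HIF1A was at 0.27, and EPAS1 was at 0.37 and 0.29 with the 5p and 3p strands. The second HIF1A probe was at -0.04 with miR-490-5p.

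**Figure D4:**
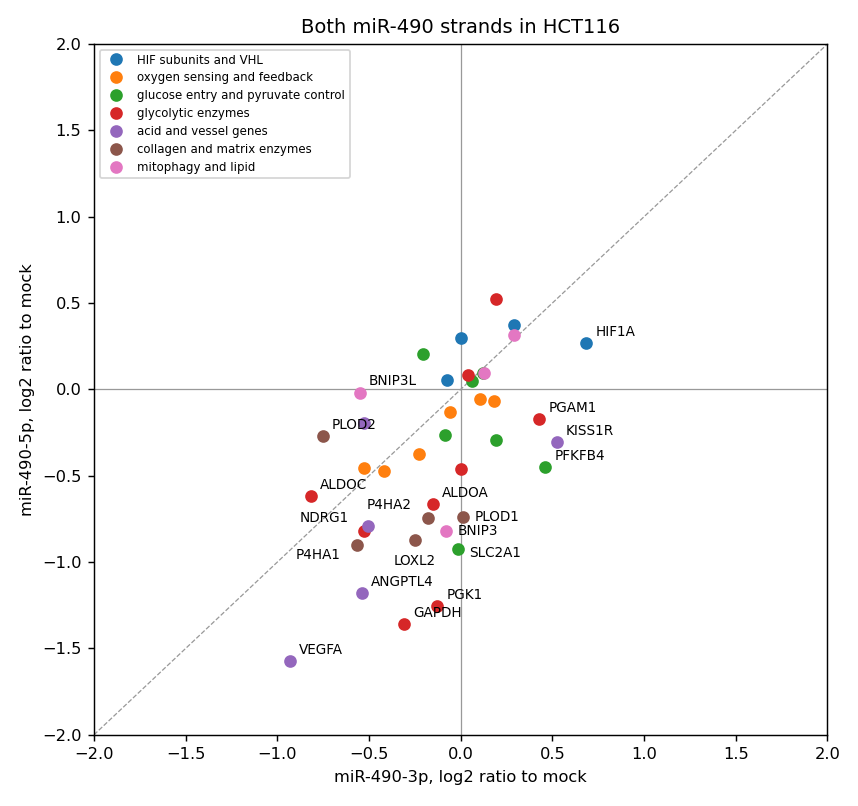
Log2 ratio to mock with miR-490-3p (x axis) and miR-490-5p (y axis) for the 40 measured genes in HCT116, coloured by role; the dashed line marks equal ratios. VEGFA lies lowest on both axes, PGK1, GAPDH and SLC2A1 lie low for miR-490-5p and near 0 for miR-490-3p, and the leaning to lower values with miR-490-3p turns under median centring (2 lower, 7 higher).

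The strands were also set against each other. Of 40 members, 13 were lower with miR-490-5p than with miR-490-3p by at least 0.5 and 1 higher, beside 6.76% and 4.79% of all genes. The lowest differences were those of PGK1 (-1.13), GAPDH (-1.05), SLC2A1 (-0.91) and PFKFB4 (-0.91). BNIP3L, a mitophagy receptor, was the 1 higher (0.53). With median centring the counts were 16 and 0. Of 8 measured other glycolysis and lactate export genes, 4 were lower by at least 0.5 for the 5p strand and none for the 3p strand, with PFKM, another phosphofructokinase, at -1.09 and 0.26 and HK2 at -0.99 and -0.17. Of the other hypoxia-induced genes, 7 of 16 were lower for 5p and 3 of 17 for 3p, among them DDIT4, an inhibitor of mTORC1, at -1.29 and -1.23. Of all genes, 5.55% were lower by at least 0.5 for the 5p strand and 3.77% for the 3p strand.

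In the renal lines the miR-139 strands left the set near mock, with some lower members for miR-139-3p in A498. In 786-O no member reached 0.5 in size with either strand, beside 0.0823% and 0.175% of all genes lower and higher with miR-139-5p and 0.128% and 0.0972% with miR-139-3p. The member ratios there ran from -0.33 to 0.25. In A498, miR-139-5p gave 1 lower and 2 higher of 41 members, beside 0.531% and 0.163%, and miR-139-3p gave 5 lower and 1 higher, beside 1.56% and 0.615%. Median centring changed the miR-139-5p count to 0 lower and 18 higher and left that of miR-139-3p at 4 lower and 1 higher. Under it the all-gene medians in A498 were 0.14 for 5p and 0.04 for 3p, and the member medians 0.46 and 0.04. The share of all genes past 0.5 is not given for that setting, so the 18 cannot be read against it.

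The 5 lower with miR-139-3p in A498 were SLC2A1 (-0.94), EGLN3 (-0.78), PLIN2 (-0.76), VEGFA (-0.75) and NDRG1 (-0.55). All 5 were higher in both mock renal lines than in both others, the last 4 by a mean of at least 1 and SLC2A1 by 0.81. In 786-O the ratios of these 5 with miR-139-3p were, in the same order, -0.11, 0.19, -0.24, -0.26 and -0.33. With the dye bias removed NDRG1 was at -0.26 in A498, while the other 4 stayed below -0.5. The second VEGFA probe gave -0.33 in A498 and the dimmer PLIN2 probes -0.30 and -0.17. ANKRD37 was higher with both strands in A498, at 0.65 for 5p and 0.68 for 3p. With miR-139-5p the remaining members past 0.5 were PFKFB3 (-0.54) and ADM (0.52), at -0.21 and 1.07 under median centring. The second PFKFB3 probe, near background, was at -0.06. EPAS1 in A498 was at 0.32 for the 5p strand and -0.18 for the 3p strand, and HIF1A at 0.14 and -0.33.

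**Figure D5:**
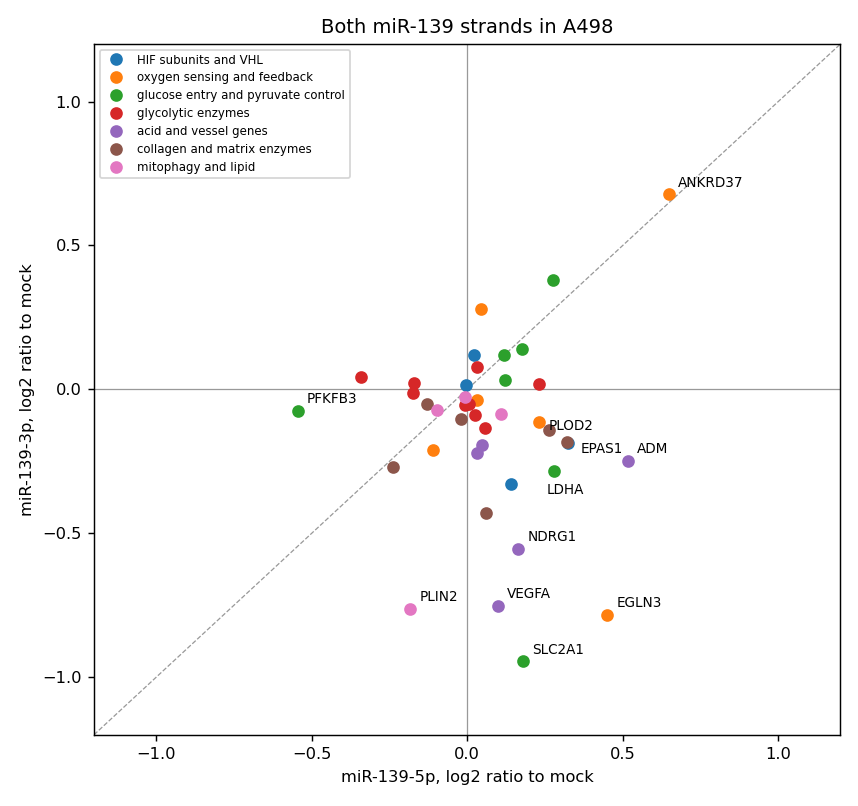
Log2 ratio to mock with miR-139-5p (x axis) and miR-139-3p (y axis) for the 41 measured genes in A498, coloured by role; the dashed line marks equal ratios. SLC2A1, EGLN3, VEGFA, PLIN2 and NDRG1 lie below -0.5 for miR-139-3p, and ANKRD37 is above 0.5 for both; under median centring 18 members are above 0.5 for miR-139-5p.

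Within A498, miR-139-3p minus miR-139-5p was -0.5 or lower for 9 of 41 members and 0.5 or higher for none, beside 1.94% and 1.04% of all genes. The lowest were EGLN3 (-1.23), SLC2A1 (-1.12), VEGFA (-0.85), ADM (-0.77) and NDRG1 (-0.72). With median centring 14 were lower and none higher. In 786-O no member of 38 differed by 0.5. HK2, outside the set, was in A498 at 0.31 for 5p and -0.79 for 3p.

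Over both renal lines, limma called no member for either strand. For miR-139-5p, 1 of 18260 genes was called (0.00548%) and none of 38 members. At an unadjusted p under 0.05 were 1164 genes and 0 members. For miR-139-3p, 1 of 17950 genes was called (0.00557%) and none of 37 members. At an unadjusted p under 0.05 were 1648 genes and 3 members (VEGFA, PLIN2 and BHLHE40), a member share no higher than that of all genes. The difference between the strands called none of 17485 genes (0%), with 115 genes and 0 of 37 members at an unadjusted p under 0.05. With the cell line as a block the strand difference again called no member.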

How the data were processed

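Scanner files of 8 Agilent 2-colour arrays were used. The authors deposited the intensity of each spot in both channels, with background and quality flags, and a log10 ratio of Cy5 to Cy3 made by Feature Extraction; the series value table held the same log10 ratios. Probe positions in the files are on hg19. From the mean intensities, background was corrected with normexp (offset 50), each array was loess-normalized, and brightness was quantile-normalized across arrays (limma 3.58.1, R 4.3.3). Control and flagged spots were left out. A gene was represented by its brightest probe. For mock levels, a gene was kept when its probe stood well above background in Cy3 on both arrays of any 1 compared line. A whole side of 2 lines was not required, so KISS1R, above background only in HCT116, was kept. For the tests of log2 ratios to mock, a gene was kept when well above background in Cy3, Cy5 or both on every array of the group. Counts on a single array used this rule on that array alone. Mock levels were averaged by line and tested as 2 renal against 2 other lines; log2 ratios were tested by group with a fit over all 8 arrays. The miR-139 replicate numbers pair the samples because replicate 1 is A498 and replicate 2 is 786-O in both groups, per the labels. A Benjamini-Hochberg adjusted p under 0.05 was a call, and limits of 0.5 and 1 on the log2 scale described single arrays. The steps were tested on simulated data. The accessions of 41 members were found in the RefSeq gene table, each under the array's own symbol.

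The members, gene lists and tests were chosen with earlier results of these data known, so no pattern here is independent support for one seen before. Named were the subunits, VHL, the prolyl hydroxylases and members with a baseline difference of at least 1 (up to 25). Up to 5 members past 0.5 on each array and members that passed a group's test were named too. At most 3 genes of each outside list were planned, but several lists had more named, and not always the largest differences. Members and outside genes named beyond this, and those named for a difference between arrays of a line, were chosen after their values were seen. One item of an outside list is not reported here. Precision is limited by the number of arrays.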

Additional observations from a re-analysis of the deposited data

How the results depend on the processing

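In the mock cells, 12 members had both renal lines above both others with a mean difference of at least 1. This count was 8 to 13 under the settings tried. No member was called in any of them but 1. With all 8 arrays and the cell line as a random block, 10 members were called, with no share of all genes given beside it. The count of members in the other direction, 1 as reported, was 10 with Cy3 median scaling alone, where the median of all genes moved to -0.28; relative to that median 11 members were higher and 6 lower. It was 3 with an offset of 10, 2 with no background correction, 3 with the scanner's processed signal, 0 with probes above background on all 8 arrays, and 2 to 3 when a line was left out. The HIF1A difference, -1.76 as reported, was -4.46 with the scanner's processed signal and, when a line was left out, ran from -3.54 without A498 to 0.0082 without 786-O, where it reversed. The count of members called with the siRNAs, 3 as reported, was 1 with the scanner's log ratio, 8 with an offset of 10, 6 with no background correction, 5 with the dye bias removed, 0 with the arrays of the group alone, and 21 to 25 when 1 array was left out. With median centring it was 4, but these were BHLHE40, EPAS1, VEGFA and VHL, all higher.

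Counts on single arrays are given here as lower or higher past 0.5, beside the values of the main setting in the report. Median centring gave 0 lower and 18 higher for miR-139-5p in A498, 8 and 8 for si-GINS1_1, 21 higher for si-GINS1_2, 3 higher for miR-490-5p, and 2 lower and 7 higher for miR-490-3p. The scanner's log ratio gave 2 higher for miR-139-3p in A498, 2 higher for miR-139-5p and 1 lower and 1 higher for miR-139-3p in 786-O, 2 higher for si-GINS1_1, 2 higher for miR-490-5p and 5 higher for miR-490-3p. An offset of 10 and no background correction each gave 2 higher for miR-139-3p in A498 and 0 higher for miR-490-5p. The median of a gene's probes gave 0 lower for miR-139-5p in A498, 2 higher for si-GINS1_1, 0 higher for miR-490-5p and 1 higher for miR-490-3p. Removing the dye bias gave 6 higher for miR-139-5p in A498, 1 higher for it in 786-O, 2 higher for si-GINS1_1, 0 higher for miR-490-5p and 5 lower for miR-490-3p. A limit of 1 left 0 on every miR-139 array, 9 lower for si-GINS1_1, 1 lower and 2 higher for si-GINS1_2, 4 lower and 0 higher for miR-490-5p and 0 for miR-490-3p.

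The differences between arrays of a line were recomputed under settings chosen after seeing the data. For si-GINS1_1 minus si-GINS1_2 the scanner's log ratio gave 16 lower and median centring 2 higher. For miR-490-5p minus miR-490-3p the members higher were 3 with the scanner's log ratio, 0 with median centring, and 2 with an offset of 10 or no background correction. For miR-139-3p minus miR-139-5p in A498 median centring gave 14 lower, and 1 was higher with the scanner's log ratio, an offset of 10 or no background correction. The cell line as a replicate block for the miR-139 strands left the number of members called at 0, and the block changed no call. The causes of these shifts were not tested. Dim probes, such as those of CA9, KISS1R and LOX, limit what can be read at the low end.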
